A study of Homo sapiens with 44 samples.

Results

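The comparison set OVCAR5 cells under IFNγ at 100 ng/ml against the same cells under IFNγ at 1 ng/ml, matched by exposure. Its members are the libraries whose treatment label names 1 of these IFNγ doses and no other stimulus, 4 a side at 2, 6, 12 and 24 h, which makes 8 of the 44 libraries in the series. OVCAR5 is an ovarian carcinoma line, and every group carried an IFNy-sensing reporter and was CFP+ by its genotype label. Messenger RNA was sequenced after continuous exposure of cultured cells to IFNγ, TNFα, both, or supernatant (SN) of a co-culture of tumor cells with T cells. Unstimulated cells and cells under IFNγ at 0.01 ng/ml, each at the same 4 durations, served as lower points of the dose series. Each treatment and duration had 1 library, so the 4 durations stand in for replicates within a dose. The labels do not say that libraries came from separate cultures. The p-values reflect no more than how far libraries scatter around a shared course plus a line over log2 exposure for each treatment. That scatter may be technical, and it also holds any bend in the course of a single treatment.

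IFNγ binds a receptor made of IFNGR1 and IFNGR2, and the kinases JAK1 and JAK2 then switch on transcription through GAS elements. Among the first targets are IRF1 and other transcription factors, which act on ISRE elements of further genes, among them those for antigen presentation, T-cell-attracting chemokines and antiviral proteins. SOCS1, itself a target, binds the receptor-associated JAK kinases and ends the signal. In carcinoma cells the same pathway controls CD274, the ligand of the inhibitory T-cell receptor PD-1, and IDO1, which breaks down tryptophan.

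Total estimated counts ran from 11671720 to 13196212 in the 8 libraries (9586125 to 16270128 in all 44), and mitochondrially encoded transcripts took 8.37% to 9.15% of counts. Levels are given as CPM, the usual depth-scaled count, scaled by the trimmed mean of M-values (TMM). The epithelial markers KRT8, KRT18, KRT19, KRT7 and EPCAM were expressed in all 8 libraries, and the 14 epithelial and ovarian carcinoma markers summed to 3351 to 3798 CPM at 100 ng/ml and 3450 to 3745 CPM at 1 ng/ml. The ovarian carcinoma markers MUC16 and WT1 were near 0, with 28 and 9 counts in the 8 libraries together. Of 9 T-cell markers 0 passed the filter on low counts. CD3D, CD3E, CD3G and CD2 had no count at either dose, and the list summed to 0.508 to 1.14 CPM at 100 ng/ml and 0.412 to 1.10 CPM at 1 ng/ml. The 7 myeloid markers summed to 3.52 to 7.29 and 2.79 to 7.75 CPM, and the 9 stromal markers to 2.39 to 9.83 and 2.79 to 10.8 CPM. These small sums overlapped between the doses.

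The 100-fold higher dose gave more transcript of a small group of genes, and lower transcript of none that passed the test at the mean exposure. The group held T-cell-attracting chemokines, CD274 and IDO1, beside genes of many other kinds. In these bulk libraries, fewer responding cells and less RNA per cell cannot be told apart. Of 14469 genes tested, 25 were called higher at 100 than at 1 ng/ml (0.173% of genes tested), and 0 were called lower, by edgeR's quasi-likelihood test at a Benjamini-Hochberg adjusted p under 0.05. The changes are fitted log2 differences at the mean log2 exposure of the fit, equal to 7.67 h. The largest belonged to the 3 chemokines that bind CXCR3 on T cells, CXCL9, CXCL10 and CXCL11. They were followed by SOCS1, by the complement inhibitor SERPING1, by IDO1 and by CD274. At unadjusted p under 0.05 there were 482 genes higher and 291 lower, and DESeq2's Wald test called 47 higher and 3 lower. It called 23 of the 25 and lost IDO1 and TRIM22.

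The count of 25 rested on single libraries. It was 7 or 9 without the 1 ng/ml library of 2 or 24 h, and 9, 12, 16 or 13 without the 100 ng/ml library of 2, 6, 12 or 24 h. By edgeR CXCL9, TRIM22, LAP3 and RNF19B were called whichever of the 8 libraries was left out. Without slopes over exposure 2 genes passed, CXCL9 and CXCL11. With only the 8 libraries, exposure as the replicate block and no slopes, 2 passed as well, neither of them among the 25.

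**Figure D1:**
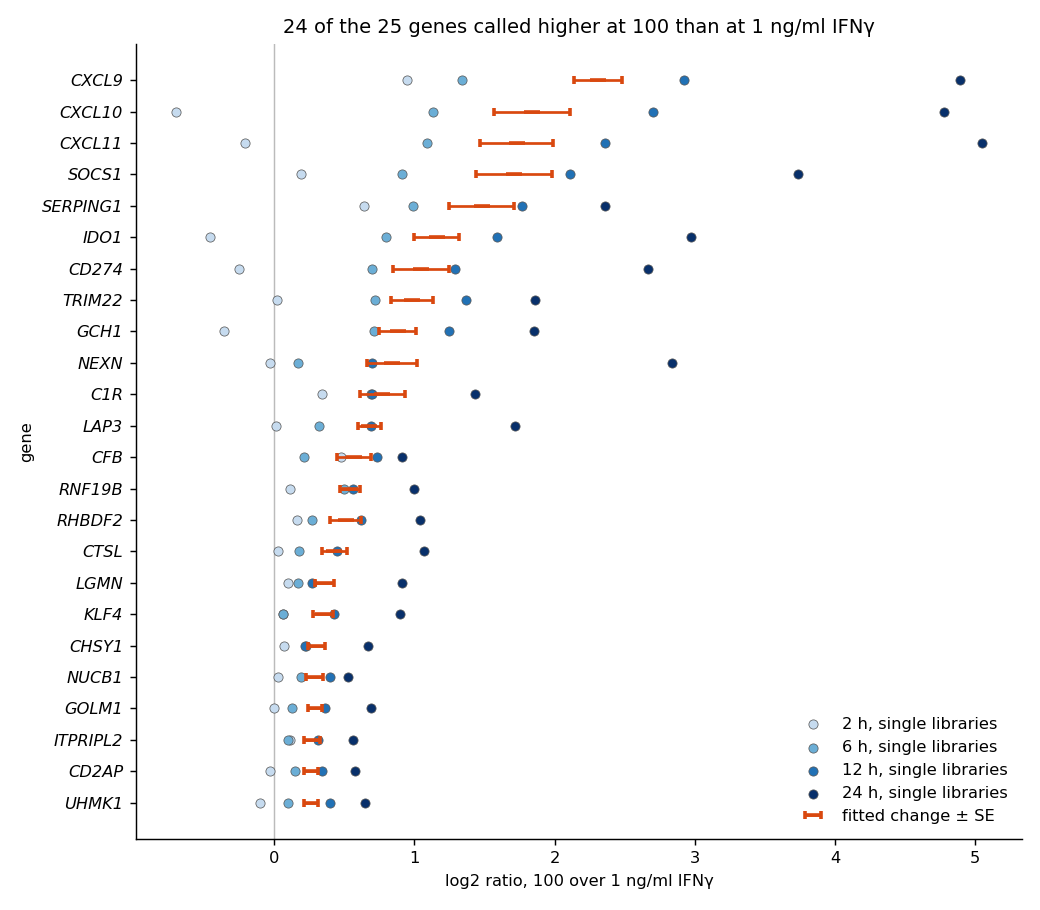
Log2 ratios of 100 over 1 ng/ml IFNγ (horizontal axis) for 24 of the 25 genes called higher at 100 ng/ml (vertical axis). Circles are single pairs of libraries, darker with longer exposure, and the bars give the fitted change ± SE. In all 24 genes the 24 h circle lies farthest to the right, up to 5.05 for CXCL11, while the 2 h circles lie between -0.70 and 0.95.

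CXCL9, CXCL10 and CXCL11 lie side by side on chromosome 4, on the minus strand, at chr4:76001275-76007488, chr4:76021117-76023497 and chr4:76033682-76041415 (GRCh38, GENCODE v29). CXCL9 stood at 0.760, 6.00, 6.73 and 6.18 CPM at 2, 6, 12 and 24 h of 1 ng/ml, and at 1.62, 15.4, 52.1 and 189 CPM at 100 ng/ml. The higher dose was above the lower at every exposure, and only the higher dose went on climbing after 6 h in these single libraries. The fitted change of CXCL9 was 2.31 ± 0.17 (SE, n = 4 libraries a dose; adjusted p = 2.2e-08 by edgeR's quasi-likelihood test).

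CXCL10 stood at 1.77, 16.9, 16.9 and 9.56 CPM under 1 ng/ml and at 1.03, 37.2, 111 and 267 CPM under 100 ng/ml. At 2 h both levels were low, and the lower dose was ahead in this 1 pair of libraries. From 6 h on the higher dose was ahead. Its fitted change was 1.84 ± 0.27 (n = 4, edgeR adjusted p = 0.00168). CXCL11 showed the same order, with 1.01, 12.3, 21.96 and 8.90 CPM against 0.855, 26.5, 113 and 301 CPM, and a fitted change of 1.73 ± 0.26 (n = 4, edgeR adjusted p = 0.00179). At 24 h the ratio of the doses was 30.5 for CXCL9 (95% exact binomial interval 24.2 to 38.9), 27.96 for CXCL10 (23.2 to 33.9) and 33.8 for CXCL11 (27.9 to 41.4). These intervals, here and below, cover counting error only. On the length-corrected scale of the deposited TPM the order among the chemokines at 24 h was the same at both doses. CXCL10 had 297.5 TPM, CXCL11 229 and CXCL9 78.1 under 100 ng/ml, and they had 11.03, 7.02 and 2.65 TPM under 1 ng/ml.

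Unstimulated cells had almost none of the 3 chemokines, at 0 to 0.177 CPM for CXCL9, 0.146 to 0.788 for CXCL10 and 0.0732 to 0.353 for CXCL11. Cells under 0.01 ng/ml had at most 0.486, 0.778 and 0.811 CPM, also below 1 CPM. Because these 3 genes moved together, the 250 bases before each RefSeq start (GRCh38.p14) are shown, read 5′ to 3′ along the gene. Capitals mark letters that match GAS (TTCNNNGAA) or ISRE (GAAA, any 2 bases, GAAA) on either strand, and overlapping matches merge.
CXCL9: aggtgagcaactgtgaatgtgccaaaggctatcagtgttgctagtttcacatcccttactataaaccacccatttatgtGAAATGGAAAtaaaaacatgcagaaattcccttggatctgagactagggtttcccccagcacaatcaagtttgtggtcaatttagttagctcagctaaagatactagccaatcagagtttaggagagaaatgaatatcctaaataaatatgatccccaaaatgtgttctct
CXCL10: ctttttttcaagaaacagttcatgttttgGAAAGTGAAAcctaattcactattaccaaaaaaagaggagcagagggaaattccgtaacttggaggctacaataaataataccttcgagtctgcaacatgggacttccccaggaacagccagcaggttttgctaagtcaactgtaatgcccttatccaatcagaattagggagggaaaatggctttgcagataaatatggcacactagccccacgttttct
CXCL11: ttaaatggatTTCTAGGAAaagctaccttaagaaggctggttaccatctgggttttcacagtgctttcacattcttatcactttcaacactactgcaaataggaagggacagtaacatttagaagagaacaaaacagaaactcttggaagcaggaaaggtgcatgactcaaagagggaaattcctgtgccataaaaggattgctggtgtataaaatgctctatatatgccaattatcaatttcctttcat
These windows are chr4:76007510-76007759, chr4:76023498-76023747 and chr4:76036071-76036320, all on the minus strand. CXCL9 and CXCL10 each held 1 ISRE match, starting 171 and 221 bases before the start. CXCL11 held a GAS match 240 bases before the start and another, TTCCAAGAA, at base 19 after it. The RefSeq start of CXCL11 lies inside the longer gene model of GENCODE v29.

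SOCS1, the feedback inhibitor of JAK kinases on chromosome 16 (chr16:11254405-11256200, minus strand), had the fourth largest fitted change, 1.71 ± 0.27 (n = 4, edgeR adjusted p = 0.00176). It stood at 1.77, 4.08, 2.32 and 0.989 CPM at 2, 6, 12 and 24 h of 1 ng/ml and at 2.05, 7.80, 10.6 and 15.3 CPM of 100 ng/ml. Under the lower dose it was highest at 6 h and still above the unstimulated range of 0.226 to 0.530 CPM at 24 h, whereas under the higher dose it was highest at 24 h. Of the 10 feedback inhibitors tested, SOCS1 was the 1 called, and their median fitted change was 0.03, beside -0.01 over all genes tested. SOCS3, another JAK inhibitor, was higher at 100 ng/ml at all 4 exposures, with log2 ratios of 0.24, 0.50, 0.80 and 0.85, and did not pass the test (0.60 ± 0.16, edgeR adjusted p = 0.216). The phosphatases PTPN1 and PTPN2, which take phosphate off JAKs and STATs, had fitted changes of 0.01 ± 0.04 and 0.05 ± 0.07. PIAS1 was the member nearest to 0, at -0.00 ± 0.06. The window before the SOCS1 start, chr16:11256205-11256454, held 1 ISRE match at 113 bases before it.
SOCS1: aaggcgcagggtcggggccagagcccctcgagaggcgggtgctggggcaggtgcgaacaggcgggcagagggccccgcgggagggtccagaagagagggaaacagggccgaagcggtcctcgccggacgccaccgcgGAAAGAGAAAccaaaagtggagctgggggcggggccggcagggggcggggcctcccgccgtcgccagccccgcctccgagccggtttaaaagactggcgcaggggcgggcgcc

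IDO1, the first enzyme of tryptophan breakdown, differed strongly between the doses. It stood at 3.46, 386, 858 and 854 CPM under 1 ng/ml and at 2.48, 674, 2579 and 6708 CPM under 100 ng/ml. The lower dose was at its plateau by 12 h, and the higher dose was 7.86 times the lower at 24 h (95% exact binomial interval 7.70 to 8.02). Its fitted change was 1.16 ± 0.16 (n = 4, edgeR adjusted p = 0.000816), and DESeq2's Wald test did not call IDO1 (adjusted p = 0.725). It was the 1 gene called of 5 tested in the tryptophan list. WARS1, the tryptophanyl-tRNA synthetase, had log2 ratios of 0.01, 0.19, 0.40 and 1.22 and was not called (0.43 ± 0.17, edgeR adjusted p = 0.716). GCH1, which makes the first step of tetrahydrobiopterin synthesis, stood at 7.27, 12.8, 9.74 and 9.81 CPM against 5.64, 21.1, 23.4 and 35.8 CPM. It was lower at 100 ng/ml at 2 h and higher from 6 h on, with a fitted change of 0.88 ± 0.13 (n = 4, edgeR adjusted p = 0.00128), and was the 1 gene called of 8 iron and metabolic enzymes.

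CD274, which encodes PD-L1, stood at 33.4, 76.2, 49.5 and 16.4 CPM under 1 ng/ml and at 28.03, 124, 121 and 106 CPM under 100 ng/ml. Under both doses it was above the unstimulated range of 2.38 to 5.57 CPM throughout. Under the lower dose the 24 h library held less than the 2 h library, and under the higher dose the level of 6 h was nearly kept. The fitted change was 1.05 ± 0.20 (n = 4, edgeR adjusted p = 0.0303), and it was called in 3 of the 8 fits that each left out 1 library. CD274 was the 1 gene called of 9 checkpoint ligands tested. CD276 (B7-H3), the member nearest to 0, had a fitted change of -0.01 ± 0.05, and PDCD1LG2, the other ligand of PD-1, had 0.31 ± 0.37.

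Of 14 complement genes, 3 were called higher at the higher dose, against 0.173% of genes tested. SERPING1, the inhibitor of the C1 proteases, stood at 0.760, 2.00, 2.47 and 4.78 CPM against 1.28, 4.14, 8.84 and 25.3 CPM, with a fitted change of 1.48 ± 0.23 (n = 4, edgeR adjusted p = 0.00139). C1R, a C1 protease, changed by 0.77 ± 0.16 and CFB, a protease of the alternative pathway, by 0.57 ± 0.12 (both edgeR adjusted p = 0.0400). Of the 8 fits that each left out 1 library, SERPING1 was called in 6, C1R in 1 and CFB in 1. All 3 were higher at 100 ng/ml at all 4 exposures. The list's median fitted change was 0.50, and 8 of its 14 genes were higher at all 4 exposures, against 6.99% of all genes tested (8.13% were lower at all 4). CD46, a membrane regulator that protects host cells, had -0.01 ± 0.05.

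Among 44 antiviral genes TRIM22 was the 1 called, at 0.98 ± 0.15 (n = 4, edgeR adjusted p = 0.00174), and DESeq2's Wald test did not call it (adjusted p = 0.314). It stood at 2.11, 11.5, 27.7 and 46.2 CPM under 1 ng/ml and at 2.14, 19.02, 71.8 and 169 CPM under 100 ng/ml, equal at 2 h and apart from 6 h on. The other called genes described here were outside the lists. LAP3, a leucine aminopeptidase, changed by 0.68 ± 0.08 and had the next smallest adjusted p after CXCL9 (1.07e-05 by edgeR), with 77.1, 144, 206 and 163 CPM against 77.8, 179, 332 and 538 CPM. RNF19B, a ubiquitin ligase, changed by 0.54 ± 0.07, and the lysosomal proteases CTSL and LGMN by 0.43 ± 0.09 and 0.36 ± 0.07. NEXN, an actin-binding protein, and the transcription factor KLF4 changed by 0.84 ± 0.18 and 0.35 ± 0.07. Further called changes, from 0.26 to 0.51, belonged to RHBDF2, CHSY1, GOLM1, NUCB1, ITPRIPL2, CD2AP and UHMK1. These genes, CTSL, LGMN, NEXN and KLF4 were each called in 1 to 5 of the 8 fits that left out 1 library.

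In these single libraries the gap between the doses differed by exposure. At 2 h the list medians were near 0, and the median log2 ratio of the CXCR3 ligands, the guanylate-binding proteins and the class I and class II genes was larger at each later exposure. The spread of the log2 ratio over the 9804 genes with a mean log2 CPM of at least 3 was 0.130 (SD over genes) at 2 h, 0.133 at 6 h, 0.173 at 12 h and 0.268 at 24 h, around medians within 0.02 of 0. In the 24 h pair of libraries 346 genes (2.39%) were over 2-fold higher at 100 ng/ml and 295 (2.04%) over 2-fold lower. At 2 h these were 199 (1.38%) and 178 (1.23%), and at 6 h 183 (1.26%) and 198 (1.37%). They were 235 (1.62%) and 185 (1.28%) at 12 h. Unlike the spread above, these counts have no floor on level beyond the filter. Of the 1030 genes called higher under supernatant 1/200 than in unstimulated cells, 152 were over 2-fold higher at 24 h and 1 over 2-fold lower. Of the 539 called lower there, 0 and 31 were.

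**Figure D2:**
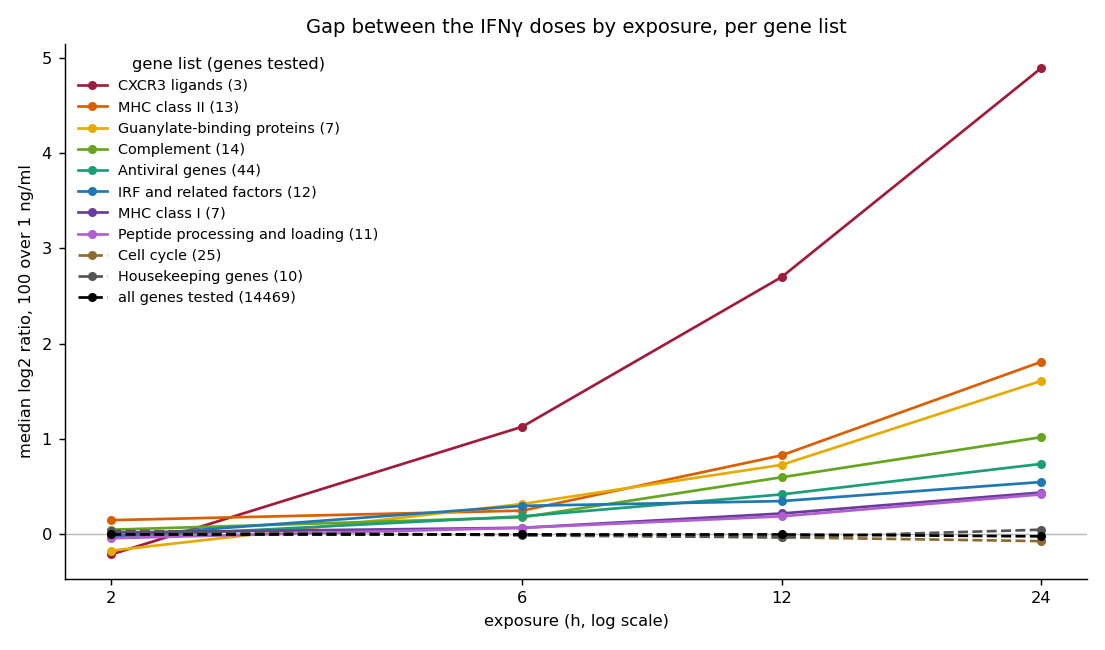
Median log2 ratio of 100 over 1 ng/ml IFNγ (vertical axis) at each exposure (horizontal axis, log scale) for 10 gene lists and for all 14469 genes tested. The medians start within 0.21 of 0 at 2 h. At 24 h they reach 4.89 for the CXCR3 ligands, 1.81 for MHC class II and 0.44 for MHC class I, while the housekeeping genes (0.05), the cell cycle genes (-0.07) and all genes (-0.02) stay near 0.

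The change of the gap per doubling of exposure was tested as the difference of the slopes of both doses, and 10 genes were called (0.0691% of genes tested), all with a gap that grew. They were CXCL11 (1.74 ± 0.25 per doubling), CXCL10 (1.64 ± 0.25), CXCL9 (1.39 ± 0.16), IDO1 (1.00 ± 0.14), NEXN (0.74 ± 0.14), GCH1 (0.60 ± 0.11), LGALS9 (0.59), LAP3 (0.46 ± 0.06), UHMK1 (0.21 ± 0.04) and the gene ENSG00000254287, which the name tables leave unnamed (1.57 ± 0.27). That gene lies within IDO1 on the opposite strand, and since the strand setting of the counting is not given, reads of the pair cannot be told apart. LGALS9, which encodes galectin-9, stood at 3.55, 10.3, 25.8 and 39.4 CPM against 2.05, 12.8, 31.7 and 109 CPM. It was lower at 100 ng/ml at 2 h and higher at the other exposures. This count was 0 without the 1 ng/ml library of 24 h, 1 without the 100 ng/ml library of 24 h, 2 without the 1 ng/ml library of 6 h and 28 without that of 2 h. DESeq2 called 22 genes, and without the 24 h libraries of every treatment edgeR called 0.

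On the fitted line at 24 h, a contrast added after the values had been seen, 148 genes were called higher at 100 ng/ml (1.02% of genes tested) and 8 lower (0.0553%). The 148 include all 25 above. At the 2 h end of the line 0 genes were called by edgeR, with 97 higher and 97 lower at unadjusted p under 0.05, and DESeq2 called 3. The count at 24 h rested on the 24 h libraries, since 9 genes were called without that of 1 ng/ml and 25 without that of 100 ng/ml. Of the 156 genes called in either direction, 9 were called in all 8 fits that each left out 1 library. A pair of unnamed genes among the 148, ENSG00000259187 and ENSG00000267952, had no count at either dose at 24 h, so their fitted values are not measurements of that exposure.

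**Figure D3:**
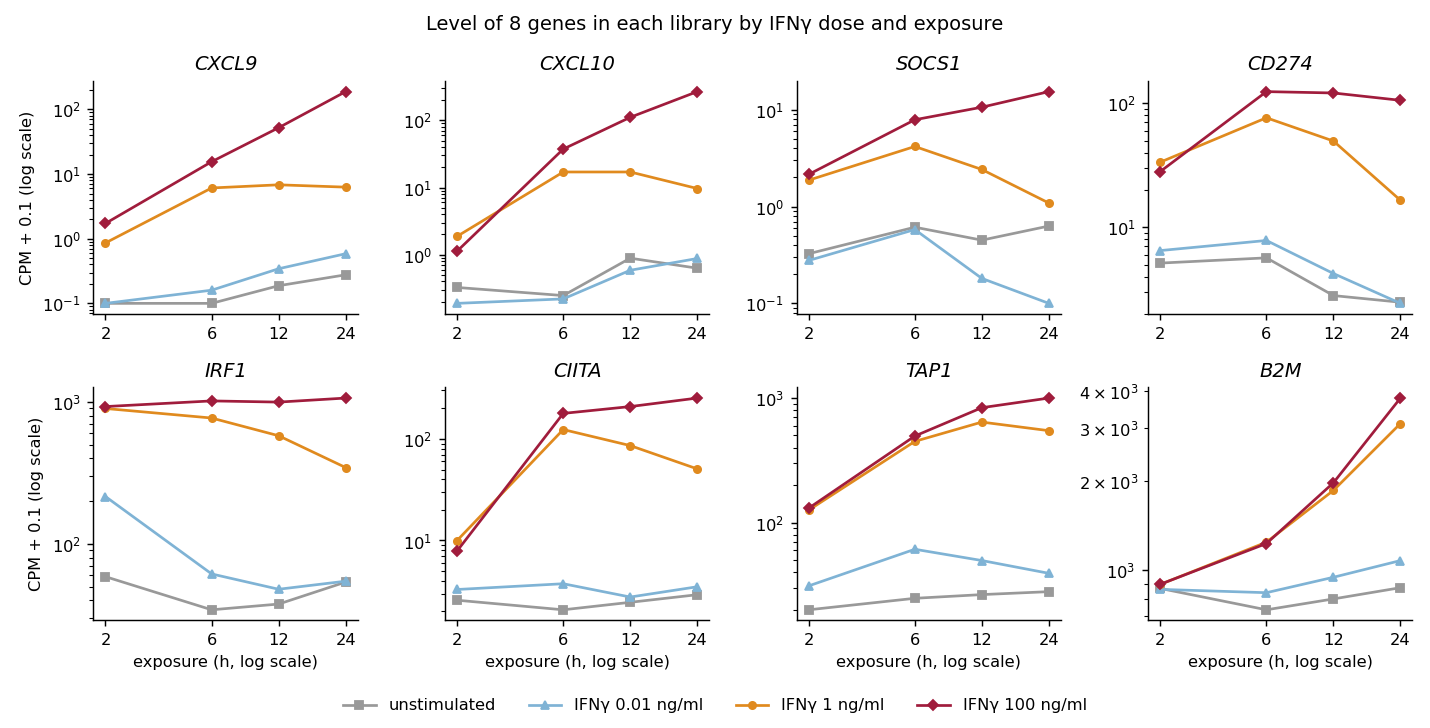
CPM + 0.1 of 8 genes (vertical axes, log scale) against exposure (horizontal axes, log scale) in single libraries of unstimulated cells and of cells under IFNγ at 0.01, 1 and 100 ng/ml. Under 1 ng/ml IRF1 goes from 898 CPM at 2 h to 344 at 24 h and CIITA from 124 at 6 h to 50.6 at 24 h, while under 100 ng/ml both are highest at 24 h, and the B2M curves of both doses nearly coincide.

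IRF1, an early target of IFNγ signaling, stood at 898, 769, 577 and 344 CPM under 1 ng/ml and at 926, 1015, 996 and 1063 CPM under 100 ng/ml. The lower dose gave less at each later exposure, and the higher dose gave a nearly constant level. Unstimulated cells had 34.2 to 58.6 CPM. The fitted difference of IRF1 at 24 h, 1.36 ± 0.49, did not pass the test (edgeR adjusted p = 0.272). Of 12 IRF and related factors 3 were called at 24 h, IRF8 (1.58 ± 0.36), ETV7 (1.37 ± 0.21) and BATF2 (1.30 ± 0.30). Over all genes tested 1.02% were called higher there. The list's median was 0.51 against -0.02 over all genes. IRF8 stood at 20.1, 31.4, 19.4 and 5.93 CPM against 20.3, 41.5, 39.2 and 22.5 CPM. IRF9, a DNA-binding partner of STAT2, was level between the doses, with 38.5, 63.3, 66.1 and 80.9 CPM against 42.4, 63.7, 67.5 and 83.5 CPM and a fitted difference of 0.02 ± 0.12 at 24 h. IRF1, IRF9, ETV7 and BATF2 were chosen after their values were seen.

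MHC class II genes, which present peptides to CD4+ T cells, had 9 of 13 members called higher at 24 h, against 1.02% of genes tested. CIITA, itself on this list, is an activator of class II chain genes. It stood at 9.89, 124, 85.9 and 50.6 CPM under 1 ng/ml and at 7.78, 178, 208 and 252 CPM under 100 ng/ml. It was past its highest level after 6 h at the lower dose only, and its fitted difference at 24 h was 2.12 ± 0.47 (edgeR adjusted p = 0.0271). CIITA was called there in 3 of the 8 fits that each left out 1 library. The class II chain HLA-DRA kept climbing at both doses, with 0.845, 6.83, 29.2 and 61.6 CPM against 1.20, 7.07, 45.5 and 173 CPM (1.33 ± 0.20 at 24 h, edgeR adjusted p = 0.000284). The peptide exchanger HLA-DMB had 0.169, 5.50, 12.9 and 12.9 CPM against 0.256, 3.74, 23.7 and 49.6 CPM. HLA-DPA1 (1.70 ± 0.20), HLA-DPB1 (2.18 ± 0.41), HLA-DOA (2.29 ± 0.38), HLA-DRB1 (1.24 ± 0.22), HLA-DMA (1.01 ± 0.18) and the protease CTSS (1.60 ± 0.22) were called at 24 h too. HLA-DRA, HLA-DRB1 and their class II relatives are similar in sequence, and reads may have been divided among them. In the 24 h pair of libraries all 13 were over 2-fold higher at 100 ng/ml, against 2.39% of genes tested. Their median level at 1 ng/ml was 28.3% of that at 100 ng/ml there. At 6 h it was 82%. The slope over exposure relative to unstimulated cells was called as rising for 7 of the 13 at 100 ng/ml and 5 at 1 ng/ml. Over all genes 2.52% rose and 0.912% fell at 100 ng/ml, and 0.359% rose and 0.0346% fell at 1 ng/ml.

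Guanylate-binding proteins, GTPases that attack the vacuoles of intracellular microbes, had a median log2 ratio of -0.17 at 2 h, with 1 of 7 higher at 100 ng/ml. At 24 h all 7 were higher, and 6 of them, against 2.39% of genes tested, were over 2-fold higher. GBP5 stood at 6.34, 54.8, 119 and 141 CPM against 6.15, 76.8, 299 and 1299 CPM, with no difference at 2 h and a 9.21-fold ratio at 24 h (95% exact binomial interval 8.76 to 9.69). GBP5 (2.75 ± 0.36) and GBP7 (1.62 ± 0.37) were called at 24 h, where 1.02% of genes tested were called higher. GBP3, the member nearest to 0 at the mean exposure, stood at 78.4, 255, 242 and 161 CPM against 69.6, 268, 293 and 321 CPM (0.77 ± 0.25 at 24 h, edgeR adjusted p = 0.182).

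Of the antiviral genes 14 of 44 were called higher at 24 h, against 1.02% of genes tested. A positive fitted difference there was seen in 43 of 44, against 6641 of the 14469 genes tested. The largest were CMPK2 (1.90 ± 0.32), TRIM22 (1.88 ± 0.19), the RNA-activated enzyme OAS2 (1.59 ± 0.32) and IFI44L (1.36 ± 0.30). OAS2 stood at 4.65, 36.2, 69.5 and 81.9 CPM against 2.65, 46.6, 129 and 254 CPM. MX2, a restriction factor of retroviruses in human cells, was the member nearest to 0, with 49.4, 48.2, 50.1 and 63.9 CPM against 50.1, 48.1, 49.2 and 58.5 CPM. Unstimulated cells had 44.7 to 58.3 CPM. Of the 26 cell death and sensing genes, FAS (1.25 ± 0.29), ZBP1 (2.44 ± 0.49) and MLKL (0.53 ± 0.13) were called at 24 h. ZBP1 was low throughout, at 3.64 CPM at most.

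MHC class I genes and the machinery that feeds them with peptides differed little between the doses. Of 7 class I and 11 processing and loading genes 0 were called at the mean exposure by edgeR, and 1, TAP2, at 24 h (0.62 ± 0.14, adjusted p = 0.0185). B2M, the light chain of class I molecules, stood at 894, 1241, 1854 and 3113 CPM under 1 ng/ml and at 895, 1228, 1967 and 3793 CPM under 100 ng/ml. The doses were equal up to 6 h, and at 24 h the ratio was 1.22 (95% exact binomial interval 1.20 to 1.24). TAP1, which forms the peptide transporter with TAP2, stood at 126, 448, 640 and 546 CPM against 130, 494, 834 and 996 CPM and was not called at 24 h (0.72 ± 0.23, edgeR adjusted p = 0.174). At 24 h the median level at 1 ng/ml was 73.6% of that at 100 ng/ml over the 7 class I genes and 74.8% over the 11 others. All 18 were called higher than in unstimulated cells at both doses.

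The windows before the starts of TAP1 (chr6:32853705-32853954, minus strand) and B2M (chr15:44711267-44711516, plus strand) are shown as those of genes not called between the doses. Each held a pair of overlapping ISRE matches, which read as 1 run of capitals.
TAP1: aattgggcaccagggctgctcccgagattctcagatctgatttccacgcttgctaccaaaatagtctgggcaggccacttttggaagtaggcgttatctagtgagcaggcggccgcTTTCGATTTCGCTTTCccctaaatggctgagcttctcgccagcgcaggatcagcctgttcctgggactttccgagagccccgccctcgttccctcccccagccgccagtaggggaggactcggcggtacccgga
B2M: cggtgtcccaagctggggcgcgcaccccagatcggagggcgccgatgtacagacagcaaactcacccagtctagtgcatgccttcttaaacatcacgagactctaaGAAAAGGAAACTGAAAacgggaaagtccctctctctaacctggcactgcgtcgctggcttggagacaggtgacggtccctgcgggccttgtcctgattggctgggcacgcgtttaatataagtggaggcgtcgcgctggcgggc
Matches were thus present in genes that were called between the doses and in genes that were not. Of the 25 genes called at the mean exposure 18 were in the promoter table, and 6 of these (33.3%) held an ISRE match and 4 (22.2%) a GAS match in the window from 250 bases before to 50 after the start. Of the 54 matched genes whose second dose step was smaller (below) and that were not called at 24 h, 48.1% held an ISRE match and 20.4% a GAS match. Over all 27305 promoters the shares were 3.65% and 7.88%, and over the 10951 matched genes tested 2.89% and 6.35%. The 1030 genes called higher under supernatant 1/200 than in unstimulated cells include all 25. Of the 792 matched among them, 12.5% held an ISRE match and 10.1% a GAS match. Of the 110 matched genes called higher at 24 h, 22 held an ISRE match and 14 a GAS match. A match of letters is a description of the window and not a measured binding site.

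The doses of the series are spaced by equal factors of 100, so the step from 1 to 100 ng/ml was set against the step from 0.01 to 1 ng/ml. Both steps share the 1 ng/ml libraries. The second step was smaller for 121 genes (0.836% of genes tested) and larger for 0 by edgeR, where 116 were larger at unadjusted p under 0.05 and DESeq2 called 3. The 121 held 10 of 11 peptide processing and loading genes, 6 of 7 class I genes, 8 of 13 class II genes, 6 of 7 guanylate-binding proteins and 18 of 44 antiviral genes. IRF9 rose by 1.22 ± 0.08 in the first step (n = 4) and had 0.05 ± 0.08 in the second, a difference of -1.16 ± 0.13 (edgeR adjusted p = 3.61e-06). Its levels at 0.01 ng/ml were 23.9, 28.7, 22.7 and 28.6 CPM, below those of both higher doses at every exposure. TAP1 had 3.10 ± 0.16 and 0.36 ± 0.14, PSMB9 of the immunoproteasome 2.47 ± 0.13 and 0.12 ± 0.12, and HLA-E 2.00 ± 0.10 and 0.24 ± 0.09 in the first and the second step.

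The 3 CXCR3 ligands were among the 121 too. Of the 25 genes called between 1 and 100 ng/ml, 8 were among the 121, which is 32% of the 25 and 6.61% of the 121. Both contrasts contain the 1 ng/ml libraries. IDO1, ZNF804A, GBP5 and GBP7 were among the 121 as well. At 0.01 ng/ml the chemokines, ZNF804A, GBP5 and GBP7 were below 1 CPM and IDO1 stood at 0 to 3.70 CPM, so the fitted size of their first step depends on the prior and is not given. GCH1 had 0.90 in the first step and 0.88 in the second, and LGMN 0.33 and 0.36, and neither difference passed the test (both edgeR adjusted p = 1). The count of called genes, 121, was 53, 60, 72 and 80 without the libraries of 1 ng/ml at 6 h, 1 ng/ml at 12 h, 0.01 ng/ml at 12 h and 0.01 ng/ml at 6 h, and 190 (186 with a smaller and 4 with a larger second step) without the 24 h libraries of every treatment. With no slopes it was 14, with only 2 h and 6 h it was 1 and with only 12 h and 24 h it was 56.

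**Figure D4:**
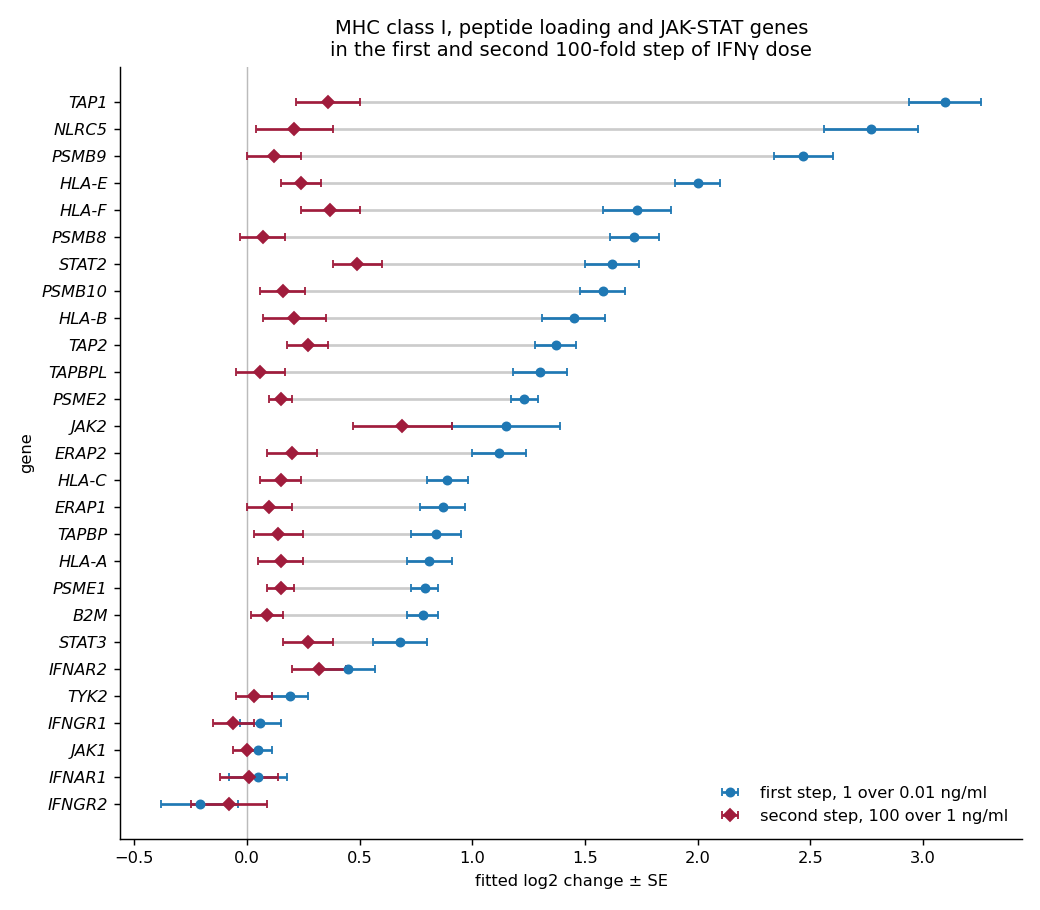
Fitted log2 change ± SE (horizontal axis) in the first step, from 0.01 to 1 ng/ml IFNγ (circles), and in the second step, from 1 to 100 ng/ml (diamonds), for 27 MHC class I, peptide processing and loading and JAK-STAT genes (vertical axis). TAP1 has 3.10 and 0.36 and PSMB9 2.47 and 0.12 in the first and second step, while IFNGR1, IFNGR2, JAK1 and IFNAR1 lie near 0 in both.

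Upstream of these targets, the receptor chains were at the same level at both doses. IFNGR1 stood at 46.9, 37.7, 38.4 and 41.8 CPM against 40.3, 37.3, 38.6 and 41.1 CPM, and JAK1 had a fitted change of -0.00 ± 0.06. JAK2 was the exception among the kinases, with 22.8, 89.8, 62.3 and 42.3 CPM under 1 ng/ml and 21.4, 111, 123 and 140 CPM under 100 ng/ml, and was called at 24 h (1.54 ± 0.35, edgeR adjusted p = 0.0317). STAT2 was the other gene of the 10 called there, at 0.89 ± 0.18, where 1.02% of genes tested were called higher. Of the 8 fits that each left out 1 library, JAK2 was called at 24 h in 3 and STAT2 in 6.

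To describe how long induced genes kept rising, a set was taken from a contrast between other libraries. The compared libraries had no weight in this contrast but entered the same fit, with its filter, scaling and spread. The set comprised the 296 genes called over 2-fold higher in cells under co-culture supernatant diluted 1/200 than in unstimulated cells. Of genes tested, 7.12% were called higher at any fold there, and 14.3% were under TNFα 10 ng/ml. Under 1 ng/ml 119 of these genes (40.2%) stood highest in the 24 h library, and under 100 ng/ml 217 (73.3%) did. The highest level was in the 6 h library for 95 (32.1%) at 1 ng/ml and 33 (11.15%) at 100 ng/ml. Over all genes tested the share highest at 24 h was 36.4% at 1 ng/ml and 34.5% at 100 ng/ml. The median log2 ratio of the 296 genes was -0.02, 0.20, 0.47 and 0.98 at 2, 6, 12 and 24 h. The 1551 genes called higher under TNFα 10 ng/ml and not under this supernatant had medians between -0.01 and 0.01 at the 4 exposures.

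**Figure D5:**
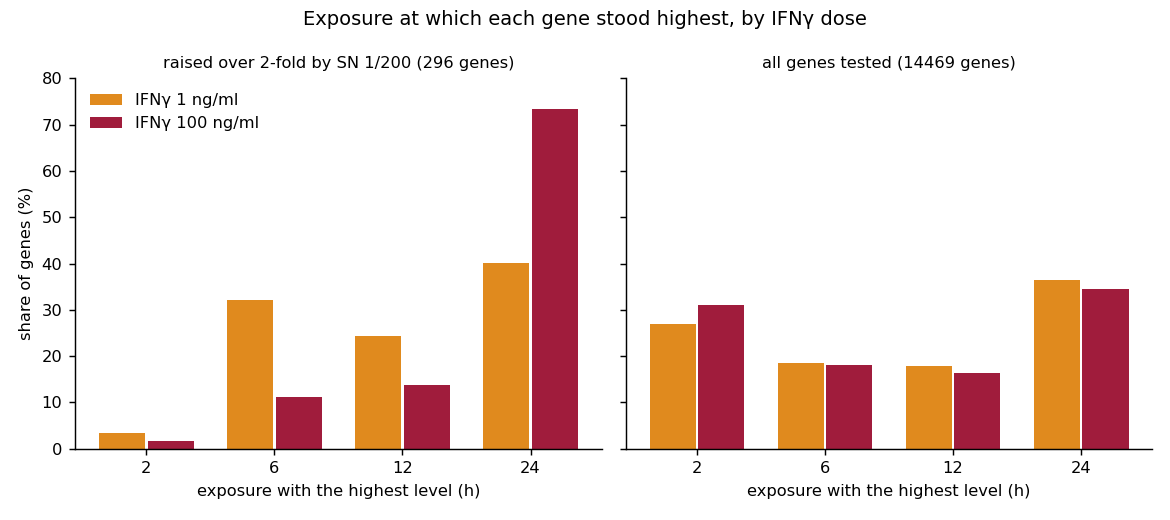
Share of genes (vertical axis, %) by the exposure at which their level was highest (horizontal axis, h) under 1 and 100 ng/ml IFNγ, for the 296 genes over 2-fold higher in co-culture supernatant (SN) 1/200 than in unstimulated cells and for all 14469 genes tested. At 24 h the shares of the 296 genes are 40.2% and 73.3%, and those of all genes 36.4% and 34.5%.

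Fewer genes were called lower than higher at the higher dose. With unstimulated and IFNγ libraries only, 52 were called lower and 248 higher at 24 h. With all libraries the 8 genes called lower at 24 h were PGF (-1.18 ± 0.24), a growth factor of the VEGF family, the Wnt receptor gene FZD7 (-0.66 ± 0.14), the keratin gene KRT80 (-0.68 ± 0.17), SOBP, GCAT, SH3BP5, PLD1 and UXS1, and they were named after their values were seen. PGF stood at 22.7, 10.5, 10.4 and 15.7 CPM under 1 ng/ml and at 22.99, 8.05, 6.95 and 6.18 CPM under 100 ng/ml, equal at 2 h and lower at the higher dose from 6 h on. Without the 1 ng/ml library of 24 h 0 genes were called lower by edgeR, as without the 100 ng/ml library of 24 h. Of the 8 fits that each left out 1 library, GCAT was called in 0, KRT80 and SOBP in 2 and UXS1 in 6. PGF was called in 5 of them, and FZD7, SH3BP5 and PLD1 in 4. AXIN2, a Wnt feedback inhibitor, stood at 2.45, 1.42, 2.55 and 8.82 CPM against 1.37, 1.87, 1.54 and 2.88 CPM and was not called (-1.22 ± 0.45 at 24 h, edgeR adjusted p = 0.274).

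Other lists showed no called gene at the mean exposure or at 24 h by edgeR. They were the 25 cell cycle genes (median fitted difference of -0.06 at 24 h), the 10 housekeeping genes (0.02), the 12 epithelial markers tested (-0.03), the 6 Wnt feedback genes tested (-0.27), the 7 leukocyte adhesion genes tested (0.11) and the 19 NF-κB feedback genes and subunits (0.21). The adhesion molecule ICAM1 was the largest of its list, with 200, 435, 309 and 164 CPM under 1 ng/ml and 202, 561, 528 and 467 CPM under 100 ng/ml. The doses were equal at 2 h, and the ratio at 24 h was 2.84 (95% exact binomial interval 2.70 to 2.995), but the fitted difference at 24 h did not pass the test (1.29 ± 0.43, edgeR adjusted p = 0.217). The housekeeping gene PPIA had a fitted change of 0.01 ± 0.04.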

How the data were processed

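RNA of 44 libraries was quantified per gene with Salmon, and the deposited files give estimated counts (expected counts) and TPM per library, per the file headers. Per the submitters' processing notes, the authors used GRCh38 and, beside Salmon, Cell Ranger, STAR, bedtools, UMI-tools, DESeq2, Picard, FastQC, StringTie, Trim Galore and SAMtools. Roles, versions, annotation and strand setting were not given in the sources used here, so overlapping and near-identical genes may share reads. Of 33538 gene IDs, 33113 were named from a gene name table and 343 from GENCODE v29, and 82 stayed unnamed.

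Estimated counts were rounded to whole numbers (15.31% to 17.23% of genes per library were fractional). Genes were kept by filterByExpr with a minimum count of 10 and a minimum total of 15, which left 14469. All 44 libraries entered one edgeR 4.0.16 robust quasi-likelihood fit (R 4.3.3) with TMM factors of 0.896 to 1.081. The model had exposure, treatment and a slope on log2 exposure for each treatment, in all 24 coefficients with 20 residual degrees of freedom, and the median biological coefficient of variation was 7.5%. p-values were adjusted by Benjamini-Hochberg over all genes tested, and the threshold was 0.05. SE was taken from the fold change and its F statistic. DESeq2 1.42.0 served as an alternative, as did other scaling, filtering, models and subsets of libraries. Ratios at single exposures are of log2 CPM with a prior count of 2, or of CPM with an exact binomial interval. The fit was also run on simulated counts with a fixed spread and no change over exposure. That run cannot show how well exposures stand in for replicates.

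The members and gene lists were chosen with earlier results of these data known. Named genes were all those called at the mean exposure, the largest and the nearest to 0 of each list, and the 5 largest called for the other contrasts, at a mean log2 CPM of at least 0, and some of these are not reported here. Others were named after their values were seen, among them IRF1, IRF9, CIITA, WARS1, SOCS3, PSMB9 and the remaining genes given for 24 h. Tests at 24 h and 2 h on the fitted line and the fits without the 24 h libraries were added after the data had been seen. Replicate numbers were given in accession order and pair nothing, while exposure pairs the libraries across doses and is a term of the model. Promoter windows, from 250 bases before to 50 after the start, came from RefSeq (GRCh38.p14).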

Additional observations from a re-analysis of the deposited data

Results flagged for a closer look

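In 10 genes the log2 ratio of 100 to 1 ng/ml IFNγ changed with exposure past the threshold of edgeR's quasi-likelihood test. The change per doubling of exposure was 1.74 for CXCL11, 1.64 for CXCL10, 1.57 for ENSG00000254287, 1.39 for CXCL9, 1.00 for IDO1, 0.74 for NEXN, 0.60 for GCH1, 0.59 for LGALS9, 0.46 for LAP3 and 0.21 for UHMK1. In 0 of these 10 did the call hold in every fit that left out 1 of the 8 libraries.

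Among 68 named genes screened over the 4 exposures, 3 had 1 exposure far from the others, where chance gives about 5% of groups. The log2 ratio of CSF3 was 0.99 at 24 h and that of ACOD1 was 0.58 at 12 h, both from counts near 0. The log2 ratio of KRT18 was -0.05 at 24 h, against 0.00, -0.00 and -0.01 at the other exposures.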

How the results depend on the processing

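The 25 genes called at the mean exposure kept their sign under every alternative run, and of the 156 called at 24 h on the fitted line 155 did without the 2 h library of either dose. Genes called at the mean exposure numbered 25, and 50 by DESeq2's Wald test, 38 with unstimulated and IFNγ libraries only, 69 with 12 h and 24 h only, 0 with 2 h and 6 h only, 2 with no slopes and 2 in the fit of the 8 libraries with exposure as replicate block. Leaving out 1 library gave 7 to 32. The change of the gap with exposure was called in 10 genes, in 22 by DESeq2, in 0 without the 24 h libraries and in 0 to 28 without 1 library. The steps differed in 121 genes, in 14 with no slopes, in 65 with unstimulated and IFNγ libraries only, in 1 with 2 h and 6 h, in 56 with 12 h and 24 h, in 190 without 24 h and in 53 to 130 without 1 library. At 24 h on the fitted line 156 genes were called, 300 (248 higher, 52 lower) with unstimulated and IFNγ libraries only and 9 to 231 without 1 library. At 2 h 0 were called, 2 with no filter, 1 with unstimulated and IFNγ libraries only, 3 by DESeq2 and 0 without any 1 library. Fits restricted to some libraries also had fewer residual degrees of freedom, and for the rest the cause was not tested. Single genes at the mean exposure stayed on their side of the threshold in 874 fits, a count that includes genes never called. The 209 fits that lost a call were all of the 25 called genes, and 9 fits of other genes gained one. Of 18 alternative fits per called gene, the call was kept in 4 (CHSY1) to 16 (CXCL9). In 119 further fits, all of genes not called, the value moved, in many of them across 0 (B2M, HLA-DMB, CSF3 and ACOD1 among them). A prior count of 0.5 left all 100 log2 ratios within the spread, taken as the SD of each gene's own ratios over the 4 exposures. That SD is wide where the gap grew with exposure, so this comparison says little about such genes. Genes near 0 counts at 1 ng/ml are limited by depth.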

Other observations

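Outside the lists, several genes were called higher at 100 than at 1 ng/ml IFNγ on the fitted line at 24 h, all named after their values were seen. IL18BP, which encodes a secreted inhibitor of interleukin-18, stood at 12.4, 57.5, 87.8 and 58.9 CPM at 2, 6, 12 and 24 h of 1 ng/ml and at 11.2, 81.3, 180 and 288 CPM of 100 ng/ml (1.97 ± 0.29, edgeR adjusted p = 0.00047). It was highest at 12 h under the lower dose and at 24 h under the higher. UBD, a ubiquitin-like protein that sends proteins to the proteasome, stood at 3.21, 20, 54.1 and 66.2 CPM against 2.48, 26.98, 88.0 and 279 CPM (1.81 ± 0.38). ASS1, an enzyme of arginine synthesis, was level up to 6 h, with 8.79, 8.00, 9.90 and 12.2 CPM against 8.12, 8.21, 15.96 and 42.5 CPM (1.56 ± 0.28, edgeR adjusted p = 0.00282).

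Of 25 other chemokines and cytokines 3 were called higher at 24 h, against 1.02% of genes tested. CX3CL1, a membrane-bound chemokine, changed by 1.88 ± 0.31, TNFSF13B, the B-cell factor BAFF, by 1.51 ± 0.31 and IL32 by 1.17 ± 0.23. The list's median there was 0.14, beside -0.02 over all genes tested.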
